A study of Mus musculus with 16 samples.

Results

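Heat shock proteins and chaperones are proteins that help other proteins to fold, and 10 of their genes were followed in the skeletal muscle of mice: Hspa1a, Hspa1b, Hspa8, Hspa5, Hsph1, Hsp90aa1, Hspb1, Hspb7, Dnajb1 and Cryab. They were taken by name from the 23235 gene names of the mRNA table. The naming rule uses no measured value, but earlier results of these data were known when the genes were chosen. The counts of their transcripts were summed per gene. Muscle RNA of 16 male mice labelled C57BL/6 (C57BL/6J in the study's methods) was sequenced, and each group held 4 mice that were 6 weeks old at the start. The control group ate a normal diet. The HFD group ate a high-fat diet with 60% fat for 8 weeks, which served as a model of insulin resistance. The HFD + RSV group ate the same diet and was then given resveratrol, a plant polyphenol, for 6 weeks, and the HFD + metformin group was given metformin, a glucose-lowering drug, for 6 weeks. The 8 weeks of fat feeding were shared by all groups but the control group. According to the study's methods, part of the mice received insulin shortly before the muscle was taken, and the sources used here do not state whether the sequenced mice were among them. The labels of the 4 HFD mice share a leading number, 7, that no mouse of another group carries, and a cage or batch behind it cannot be told apart from the HFD group. Between other groups some numbers are shared, since 3 control and 2 RSV mice carry 1, and 1 RSV and 1 metformin mouse carry 6. What the number stands for is not given in the sources used here. In whole muscle, fewer cells of a type and less RNA per cell cannot be told apart. Mice are numbered 1 to 4 within each group in the order of their records, and a number does not link mice of different groups.

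Chaperones of the HSP70 family bind stretches of unfolded protein and release them in a cycle driven by ATP. J-domain proteins such as Dnajb1 deliver clients to HSP70 and start the cycle, and HSP110 proteins such as Hsph1 exchange the nucleotide that ends it. HSP90 acts later on kinases and receptors, and small heat shock proteins such as Hspb1 and Cryab hold unfolding proteins without ATP, in muscle often along the filaments and the Z-disc. Heat, exercise and other stresses free the factor HSF1, which binds heat shock elements in promoters and raises the inducible members, whereas Hspa8 is made at a high level without stress. Hspa5, also called BiP or GRP78, is the HSP70 of the endoplasmic reticulum (ER) and responds to unfolded protein inside it.

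The libraries held 20281801 to 34021101 counts per mouse over the mRNA and lncRNA tables. Muscle transcripts were abundant in all mice, with Acta1 at 244704 to 557972 counts and Ttn at 2786938 to 5274327 counts. The extraction text of the labels speaks of retinas. The retinal transcripts Rcvrn and Gnat1 each had 0 to 2 counts, so the marker levels were those of muscle. CPM are counts for each 1000000 counts of the library, scaled by the trimmed mean of M values (TMM), and FPKM are the deposited values per transcript length. Genes of other cell types and fibre types varied widely between mice. The summed level of 8 slow fibre genes was 114.2 to 2451 CPM in control mice and 117.6 to 299.4 in HFD mice. The summed level of 7 adipocyte genes was 1042 to 4712 CPM in control mice and 207.7 to 1033 in HFD mice. None of these 15 markers was at 0 in all mice.

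Promoter sequences show which members carry the recognition sites of these stress pathways. RefSeq promoters (GRCm38.p6, from 250 bases before to 50 bases after the start) were found for 7 of the 10 genes, and Hspa8, Hsp90aa1 and Cryab had no entry. The promoters of 5 genes are printed because they carry a heat shock element or the ER stress element, with the matches in capitals. The heat shock element was searched as GAANNTTC or TTCNNGAA, which together cover both strands, and 15.06% of the 32851 promoters of this length hold one. A run of 3 units, that is, either motif extended by NNGAA or NNTTC, contains 2 overlapping matches of the shorter motif and occurs in 0.6027% of promoters. The ER stress element was searched as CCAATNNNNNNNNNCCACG on both strands and occurs in 0.1187%.
Hspa1a, chr17:34972107-34972406, minus strand: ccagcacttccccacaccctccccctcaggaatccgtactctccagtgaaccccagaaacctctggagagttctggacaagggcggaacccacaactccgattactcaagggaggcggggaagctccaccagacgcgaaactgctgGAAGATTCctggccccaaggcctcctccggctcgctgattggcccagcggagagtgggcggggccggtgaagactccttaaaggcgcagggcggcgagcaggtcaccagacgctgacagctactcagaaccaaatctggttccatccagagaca
Hspa1b, chr17:34959189-34959488, minus strand: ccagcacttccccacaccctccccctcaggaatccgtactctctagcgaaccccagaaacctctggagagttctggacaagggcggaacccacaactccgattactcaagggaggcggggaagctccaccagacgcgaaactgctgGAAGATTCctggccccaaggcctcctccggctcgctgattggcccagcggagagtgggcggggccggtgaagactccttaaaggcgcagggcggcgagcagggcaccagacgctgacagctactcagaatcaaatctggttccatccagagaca
Hsph1, chr5:149636287-149636586, minus strand: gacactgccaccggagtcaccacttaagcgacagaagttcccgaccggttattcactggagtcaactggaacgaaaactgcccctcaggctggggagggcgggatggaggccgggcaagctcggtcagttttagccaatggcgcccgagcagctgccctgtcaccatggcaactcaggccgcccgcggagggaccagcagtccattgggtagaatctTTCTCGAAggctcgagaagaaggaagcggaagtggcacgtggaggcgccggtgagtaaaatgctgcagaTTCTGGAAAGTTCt
Hspb1, chr5:135887669-135887968, plus strand: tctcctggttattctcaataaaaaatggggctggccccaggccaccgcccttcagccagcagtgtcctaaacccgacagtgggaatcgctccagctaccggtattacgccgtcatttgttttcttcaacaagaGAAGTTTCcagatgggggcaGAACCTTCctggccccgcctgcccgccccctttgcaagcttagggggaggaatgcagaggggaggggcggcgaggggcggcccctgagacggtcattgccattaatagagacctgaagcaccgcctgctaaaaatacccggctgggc
Hspa5, chr2:34771840-34772139, plus strand: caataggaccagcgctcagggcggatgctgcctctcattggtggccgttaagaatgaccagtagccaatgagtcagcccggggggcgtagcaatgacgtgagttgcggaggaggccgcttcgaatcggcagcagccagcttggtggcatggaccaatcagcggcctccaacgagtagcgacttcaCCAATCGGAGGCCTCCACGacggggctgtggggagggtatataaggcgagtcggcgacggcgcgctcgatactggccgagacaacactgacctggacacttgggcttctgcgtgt

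The promoters of Hspa1a and Hspa1b differed at 4 of 300 bases, and both had 1 heat shock element, beginning at position -104 from the start. Hspb1 had 2, at -117 and -97. In the promoter printed, Hsph1 had 1 at -33 and a run of 3 units that begins at 37, past the start. A second Hsph1 promoter (chr5:149636266-149636565), counted from another start, had them at -54 and 16. Hspa5 had no match to the heat shock element and 1 ER stress element at -65. Neither motif matched in the promoters of Hspb7 and Dnajb1, which says only that these letters are not in that window. 

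Several members have close copies in the genome. Hspa1a (chr17:34969190-34972156, minus strand) and Hspa1b (chr17:34956436-34959238, minus strand) are neighbours that each have 1 transcript in the table. Of the windows of 100 bases in the Hspa1a transcript, 48.64% occur unchanged in another gene, mostly Hspa1b, and 49.93% of those of Hspa1b occur elsewhere, mostly in Hspa1a. The same share was 62.83% for Hspa8 (mostly Gm15459), 47.55% for Hsp90aa1 (mostly Gm12346) and 56.34% for Hspb1 (Hsp25-ps1), and it was 0% for Hspa5, Hsph1, Hspb7, Dnajb1 and Cryab. Values of the former 5 genes are therefore uncertain where reads were divided between copies. Cryab overlaps Hspb2 and Hspa1a overlaps Gm20481 on the other strand, and reads of the partners could mix if strand was not used in counting.

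The members spanned a wide range of levels. In FPKM, the highest were Hspa8 (median 120.1 over the 16 mice, range 99.93 to 158), Hspb1 (118.6, 76.2 to 288.8) and Cryab (114.5, 71.65 to 342.5). These 3 did not separate from one another beyond the spread between mice. Hspb7 (52.26) and Hspa5 (47.48) followed with ranges that overlap, and the range of Hsph1 (26.85) lay below that of Hspa5. Hsp90aa1 came next (8.224), and its range lay below that of Hsph1. The inducible HSP70 genes were low, with medians of 5.265 FPKM for Hspa1b and 3.45 for Hspa1a, and Dnajb1 was the lowest at 2.775. The ranges of these last 3 and of Hsp90aa1 overlapped. Hspb7 varied most, with a highest value 14.85 times the lowest, whereas Hspa5 varied 1.493-fold and Hspa8 1.581-fold.

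**Figure D1:**
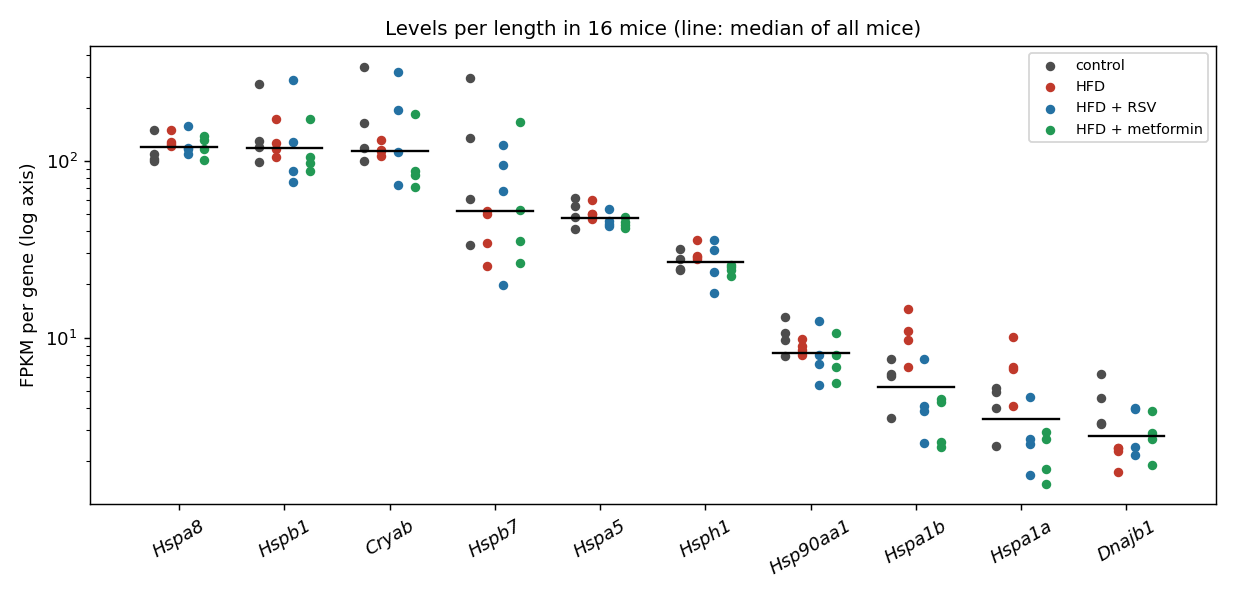
Levels of the 10 genes in FPKM on a log axis, with 1 point per mouse coloured by group and a line at the median of the 16 mice. Hspa8, Hspb1 and Cryab sit at 71.65 FPKM or more in every mouse, and Dnajb1, Hspa1a and Hspa1b sit at 14.45 or less.

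The first question was whether the fat diet, and each drug on top of it, went with different levels of these genes. The inducible HSP70 genes Hspa1a and Hspa1b were 1.87- and 2.02-fold higher in HFD mice than in control mice (log2FC 0.90 and 1.02). They were 2.51 and 2.42 times lower in HFD + RSV mice than in HFD mice, and 3.34 and 3.28 times lower in HFD + metformin mice. Dnajb1 was lower in every HFD mouse than in any control mouse, and the constitutive Hspa8 overlapped between all groups. None of the 10 genes had an adjusted P < 0.05 in edgeR's quasi-likelihood test with Benjamini-Hochberg adjustment over the 15364 genes tested. In HFD against control, 2.43% of all genes passed and 0 of 10 members did. At an unadjusted P < 0.05 the numbers were 24.2% of genes and 3 of 10 members, so the members' share was near that of all genes. In HFD + RSV against HFD, 0% of genes passed after adjustment, and 4.72% of genes and 2 of 10 members had an unadjusted P < 0.05. In HFD + metformin against HFD, 0.013% of genes passed, and 8.02% of genes and 5 of 10 members had an unadjusted P < 0.05. All 5 of these members were lower in the metformin group. Hspa1a and Hspa1b, which share sequence, are 2 of the members in each of the 3 unadjusted counts and are not independent. DESeq2, a second tool, called 2 members in HFD against control (Hspa1b and Dnajb1), 0 in HFD + RSV against HFD and 2 in HFD + metformin against HFD (Hspa1a and Hspa1b). It called 6.69%, 0.0345% and 0.138% of 23205 genes in these comparisons. That base includes genes with few counts, which were removed before edgeR's test of 15364 genes. The shares of the 2 tools are therefore not on the same base, and DESeq2's may be low for the members. The study's thresholds on P and on an absolute log2FC above 1 were applied here to edgeR's unadjusted P, although the study's methods also name control of the false discovery rate. They were met by Hspa1b in HFD against control and by Hspa1a and Hspa1b in both drug comparisons, beside 4.94%, 1.08% and 1.76% of all genes. The 2 drug comparisons share the HFD mice with each other and with HFD against control, so the opposite directions are not independent of one another.

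**Figure D2:**
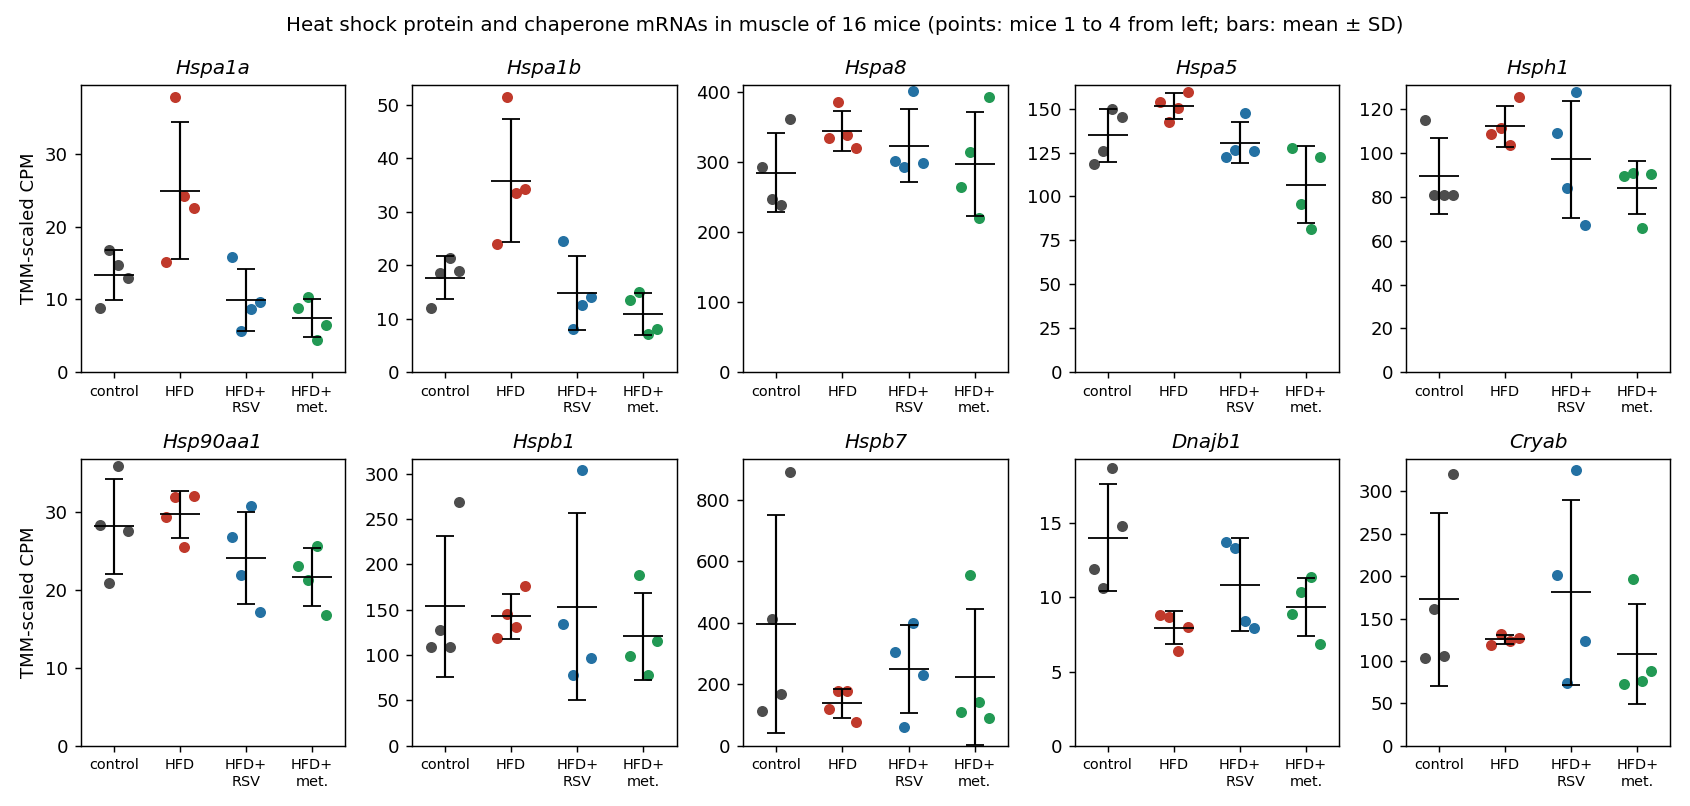
TMM-scaled CPM of each gene in the 16 mice, on linear axes that begin at 0, with points for mice 1 to 4 from left to right and bars for the mean ± SD of 4 mice. Hspa1a and Hspa1b are highest in HFD mouse 2 (37.84 and 51.52 CPM), and Hspb1, Hspb7 and Cryab each spread widely within the control, RSV and metformin groups.

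Hspa1a encodes HSP70, the stress-inducible cytosolic chaperone. Its level was 8.818, 16.86, 14.7 and 12.95 CPM in control mice 1 to 4 and 15.14, 37.84, 24.27 and 22.6 CPM in the HFD mice. After the drugs it was 15.83, 5.636, 8.65 and 9.657 CPM in the RSV mice and 8.8, 10.3, 4.351 and 6.432 CPM in the metformin mice. HFD mouse 1 lay within the control range and RSV mouse 1 lay within the HFD range, while every metformin mouse was below every HFD mouse. The log2FC was 0.90 in HFD against control (SE 0.34, adjusted P = 0.13), -1.33 in HFD + RSV against HFD (SE 0.34, adjusted P = 0.999) and -1.74 in HFD + metformin against HFD (SE 0.35, adjusted P = 0.252).

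Hspa1b encodes a nearly identical HSP70 from the neighbouring gene. Its level was 11.91, 18.6, 21.3 and 18.93 CPM in the control mice and 23.93, 51.52, 33.5 and 34.27 CPM in the HFD mice. In the RSV mice it was 24.46, 8.064, 12.51 and 14.08 CPM, and in the metformin mice 13.47, 15.02, 7.097 and 8.12 CPM. In CPM the HFD mice were all above the control mice, and again only RSV mouse 1 reached the HFD range. In FPKM, which use no TMM factor, control mouse 3 (7.526) was above HFD mouse 1 (6.849), so these 2 groups overlapped. The TMM factors of these mice were 1.172 and 0.917, and whether scaling made the difference was not tested. For Hspa1b the log2FC was 1.02 in HFD against control (SE 0.33, adjusted P = 0.0948), -1.28 in HFD + RSV against HFD (SE 0.34, adjusted P = 0.999) and -1.71 in HFD + metformin against HFD (SE 0.34, adjusted P = 0.252).

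These calls depended on the tool. The adjusted P of Hspa1b in HFD against control was 0.0287 in DESeq2 and ranged from 0.0287 to 0.232 over 24 alternatives. In HFD + metformin against HFD the DESeq2 adjusted P was 0.000902 for Hspa1a and 0.00079 for Hspa1b, and over the alternatives the values reached 0.911 for both. The log2FC of the pair kept its sign in all of them, between 0.63 and 1.17 in HFD against control and between -1.94 and -1.47 in the metformin comparison.

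Since the pair shares sequence, the counts were also summed as 1 gene, an alternative chosen after seeing the data. The sum was 31.01 ± 7.098 CPM (SD, n = 4) in control mice, 60.77 ± 20.91 in HFD mice, 24.72 ± 11.22 in HFD + RSV mice and 18.4 ± 6.482 in HFD + metformin mice. Its log2FC was 0.97 (SE 0.33, adjusted P = 0.106), -1.30 (SE 0.34, adjusted P = 0.999) and -1.72 (SE 0.34, adjusted P = 0.277) in the 3 comparisons. Hspa1a held 38.01% to 47.55% of the summed count in single mice, so the division between the copies varied little. Levels of some other genes are given beside the pair. The summed level of 10 immediate early genes, which respond within minutes to stimulation, was 280.3 to 339.3 CPM in control mice, 177.3 to 240.2 in HFD mice, 212.8 to 392.8 in HFD + RSV mice and 166.3 to 204.4 in HFD + metformin mice. None of the 10 was called by edgeR in the 3 main comparisons. At an unadjusted P < 0.05, 6 were lower in HFD against control (24.2% of all genes in either direction), 5 were higher in HFD + RSV against HFD (4.72%) and 1 was lower in HFD + metformin against HFD (8.02%). The summed level of 5 erythroid genes was 356.9 to 879.9 CPM in control mice, 361.3 to 476.5 in HFD mice, 507.1 to 1342 in HFD + RSV mice and 499.4 to 1392 in HFD + metformin mice. None of the 5 was called, and at an unadjusted P < 0.05 the numbers were 0 in HFD against control, 4 higher in HFD + RSV against HFD and 5 higher in HFD + metformin against HFD. Their part in the Hspa1a and Hspa1b differences was not tested.

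Dnajb1, the J-domain protein that works with inducible HSP70, went the other way. Its level was 11.91, 10.62, 18.72 and 14.82 CPM in the control mice and 8.784, 8.649, 6.409 and 7.992 CPM in the HFD mice. The RSV mice had 13.73, 13.35, 8.384 and 7.913 CPM, and the metformin mice had 8.855, 10.38, 11.36 and 6.863 CPM. Every HFD mouse was below every control mouse, and both drug groups overlapped the HFD group. Of all genes, 18.3% had groups that did not overlap in CPM in HFD against control, as did Dnajb1 and Hspa1b among the 10 members. In FPKM the groups overlapped for Hspa1b. The log2FC was -0.82 in HFD against control (SE 0.22, adjusted P = 0.0626), 0.45 in HFD + RSV against HFD (SE 0.22, adjusted P = 0.999) and 0.23 in HFD + metformin against HFD (SE 0.22, adjusted P = 0.78). The first passed with DESeq2 (adjusted P = 0.0139), with the mice of these 2 groups alone (0.0398), without metformin mouse 3 (0.0338) and without metformin mouse 4 (0.0491), and its adjusted P ranged from 0.0139 to 0.195 over 25 alternatives. Without metformin mouse 3 the same comparison called 1588 of 15565 genes (10.2%), and the fit, the filter and the set of tested genes all differ from those with 16 mice.

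Hsph1 encodes HSP110, which exchanges the nucleotide of HSP70 and slows aggregation. The control mice had 115.4, 81.1, 81.07 and 80.69 CPM, the HFD mice 108.6, 111.5, 103.7 and 125.6, the RSV mice 109.3, 84.03, 128.1 and 67.29, and the metformin mice 89.43, 91.09, 65.98 and 90.4. Control mouse 1 stood apart from the other 3 control mice and within the HFD range, and every metformin mouse was below every HFD mouse. The log2FC was 0.33 (SE 0.18, adjusted P = 0.281) in HFD against control, -0.21 (SE 0.18, adjusted P = 0.999) in HFD + RSV against HFD and -0.42 (SE 0.18, adjusted P = 0.618) in HFD + metformin against HFD.

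Hspa8, the constitutive HSP70 also called HSC70, overlapped between all groups. Its level was 285.3 ± 56.22 CPM (SD, n = 4) in control mice, 344.8 ± 28.62 in HFD mice, 324 ± 51.88 in HFD + RSV mice and 297.9 ± 74.16 in HFD + metformin mice. The log2FC was 0.27 (SE 0.18) in HFD against control, -0.09 (SE 0.18) in HFD + RSV against HFD and -0.21 (SE 0.18) in HFD + metformin against HFD. Hsp90aa1, the inducible cytosolic HSP90, was at 28.23 ± 6.133 CPM in control mice, 29.74 ± 3.029 in HFD mice, 24.19 ± 5.929 in HFD + RSV mice and 21.75 ± 3.717 in HFD + metformin mice. The metformin mice had 23.1, 21.35, 25.68 and 16.85 CPM against 29.38, 31.93, 25.59 and 32.06 CPM in the HFD mice, and 1 metformin mouse reached the HFD range. The log2FC of Hsp90aa1 was -0.45 in that comparison (SE 0.19, unadjusted P = 0.0289, adjusted P = 0.618 in edgeR).

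Hspa5, the ER chaperone, was lowest in the metformin group. Its level was 118.4, 126, 149.7 and 145 CPM in the control mice and 153.6, 142.2, 150.6 and 159.6 CPM in the HFD mice. The RSV mice had 122.3, 126.6, 147.8 and 125.7 CPM and the metformin mice had 127.6, 95.47, 81.28 and 122.2 CPM. In CPM, all metformin mice were below all HFD mice, and metformin mice 2 and 3 were below every other mouse. Among all genes, 3.72% had groups that did not overlap in CPM in HFD + metformin against HFD. The same held for 4 of the 10 members, namely Hspa1a, Hspa1b, Hsph1 and Hspa5, all lower in the metformin group. Of these, Hspa1a and Hspa1b share sequence and are not independent. In HFD + RSV against HFD the groups did not overlap for 4.2% of all genes and for 0 of 10 members. The log2FC of Hspa5 was 0.17 in HFD against control (SE 0.13, adjusted P = 0.445), -0.21 in HFD + RSV against HFD (SE 0.13, adjusted P = 0.999) and -0.51 in HFD + metformin against HFD (SE 0.13, adjusted P = 0.497).

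The same 2 metformin mice divided their Hspa5 counts over transcripts in another way. In the 14 other mice, the protein-coding ENSMUST00000100171 (2613 bases, chr2:34772095-34776531) held 89.21% to 91.94% of the count and the longer protein-coding ENSMUST00000028222 (3672 bases, chr2:34771970-34777547) held 5.811% to 7.824%. In metformin mice 2 and 3 the former held 40.6% and 53.38% and the latter 43.62% and 31.81%. ENSMUST00000155595, a transcript of 574 bases with a retained intron, held 13.81% and 12.94% in these mice and 1.606% to 2.763% in the 14 others. The last 2 transcripts were singled out after their values were seen. In counts, ENSMUST00000100171 had 1035 and 1027 in the 2 mice and 1909 to 3561 in the others, and ENSMUST00000028222 had 1112 and 612 against 125 to 272. Without these 2 mice, an alternative chosen after seeing the data, the log2FC of Hspa5 in HFD + metformin against HFD was -0.28 (adjusted P = 1). FPKM divide each transcript by its own length and use no TMM factor. In FPKM the metformin mice had 48.13, 43.51, 45.42 and 41.9 for Hspa5 and the HFD mice had 50.1, 46.83, 50.43 and 59.81. The groups overlapped there only through metformin mouse 1 (48.13) and HFD mouse 2 (46.83). Metformin mice 2 and 3 were not the lowest in FPKM, since control mouse 1 had 41.4, RSV mouse 4 had 42.64 and metformin mouse 4 had 41.9. Metformin mouse 1 held 90.3% on ENSMUST00000100171, and the TMM factors were 1.032 for it and 0.894 for HFD mouse 2. Whether length or scaling made the overlap was not tested. Why the division over transcripts differed was not tested.

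**Figure D3:**
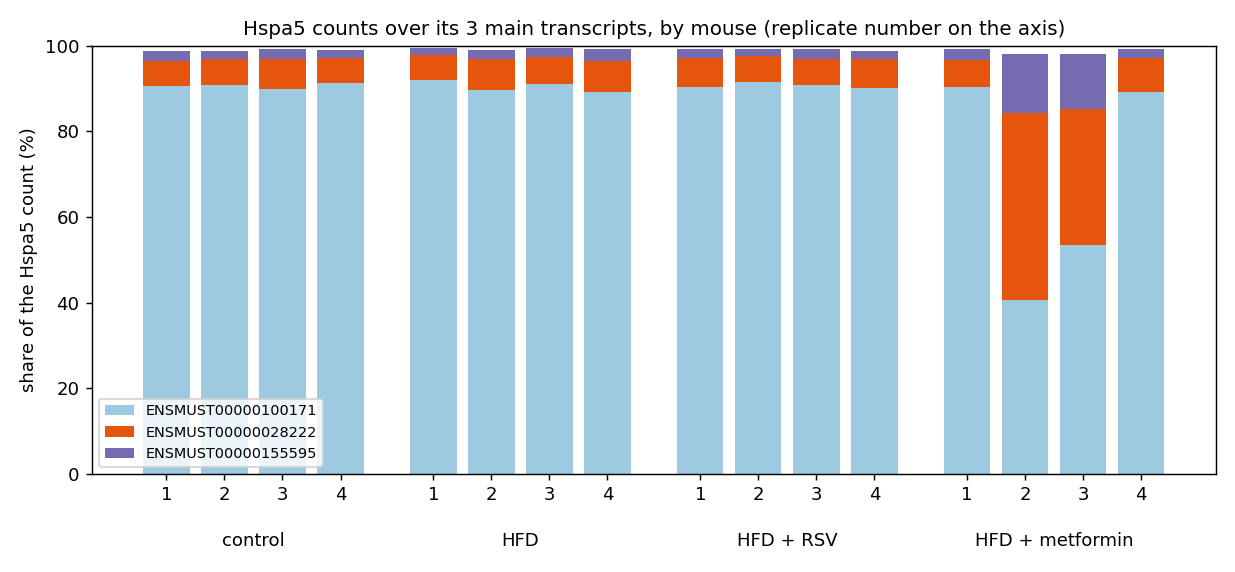
Share of the Hspa5 count (%) in its 3 main transcripts, with 1 bar for each of the 16 mice grouped by treatment and numbered by mouse. ENSMUST00000100171 holds 89.21% or more in 14 mice and 40.6% and 53.38% in metformin mice 2 and 3.

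The 3 small heat shock proteins varied widely between mice of a group. Hspb7, a small heat shock protein of heart and skeletal muscle, was at 113, 412.2, 169.7 and 889.3 CPM in the control mice and 119.1, 176.6, 177 and 78.82 CPM in the HFD mice. The RSV mice had 305.8, 62.48, 398.6 and 230 CPM and the metformin mice 108.5, 555, 143.8 and 88.78 CPM. Control mouse 4 and metformin mouse 2 were the highest, and all groups overlapped. The log2FC was -1.52 in HFD against control (SE 0.73, adjusted P = 0.216), 0.85 in HFD + RSV against HFD (SE 0.72, adjusted P = 0.999) and 0.70 in HFD + metformin against HFD (SE 0.71, adjusted P = 0.789). Without control mouse 4 the first was -0.75, and without metformin mouse 2 the last was -0.28, the opposite direction.

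Cryab encodes alphaB-crystallin, which binds desmin and titin in muscle. Its level was 103.1, 161, 105.6 and 320.1 CPM in the control mice and 118.3, 131.9, 123.4 and 127.6 CPM in the HFD mice. In the RSV mice it was 201.4, 74.36, 324.6 and 123.3 CPM, and in the metformin mice 72.76, 196.7, 76.67 and 88.1 CPM. The HFD mice were close to one another (125.3 ± 5.789 CPM, SD, n = 4), and control mouse 4 and RSV mouse 3 stood above all others. The log2FC was -0.46 (SE 0.45), 0.53 (SE 0.45) and -0.21 (SE 0.45) in HFD against control, HFD + RSV against HFD and HFD + metformin against HFD, and single mice set these values. Without control mouse 4 the first was 0.02, without RSV mouse 3 the second was 0.09, and without metformin mouse 2 the last was -0.66.

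Hspb1, also called HSP25 in the mouse, protects actin filaments. It was at 108.9, 128, 109.2 and 269.3 CPM in the control mice, 118.9, 145.2, 131 and 176.7 in the HFD mice, 134.1, 78.35, 304 and 96.93 in the RSV mice and 98.94, 188.9, 78.57 and 116.1 in the metformin mice. The same mice that were high in Cryab were high in Hspb1, namely control mouse 4, RSV mouse 3 and, within its group, metformin mouse 2. The log2FC was -0.11 (SE 0.41), 0.10 (SE 0.41) and -0.24 (SE 0.41) in the 3 comparisons. The first was 0.31 without control mouse 4, the second was -0.47 without RSV mouse 3, and the last was -0.55 without metformin mouse 2.

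Slow fibre genes are given beside these 3 genes. In HFD against control all 8 had a negative log2FC at an unadjusted P < 0.05 and 0 were called by edgeR, with a median log2FC of -3.54 against -0.02 over all genes. Their summed level was 143.7 to 1452 CPM in HFD + RSV mice and 222.6 to 543.5 in HFD + metformin mice, and the value in control mouse 1 (114.2 CPM) was far below those in control mice 2 to 4 (2451, 1110 and 1593 CPM). Control mouse 1 also had the lowest Hspb7 and Cryab of its group. Among the HFD + RSV mice the order differed, since mouse 4 had the highest slow fibre level and mouse 3 the highest Hspb7, Cryab and Hspb1. After the group means were subtracted, Pearson's r of log2 CPM with the 8 slow fibre genes over the 16 mice was 0.31 to 0.43 for Hspb7, 0.00 to 0.16 for Cryab and -0.15 to 0.06 for Hspb1. It was -0.81 to -0.67 for Hsph1, -0.51 to -0.41 for Hsp90aa1 and between -0.35 and 0.21 for the other 5 members. Hsph1 had the most negative r of the 10 members, and its log2FC in HFD against control was 0.33, opposite in sign to that of the 8 slow fibre genes. The points share libraries and their depth, and the part of fibre content in the members' values was not tested.

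**Figure D4:**
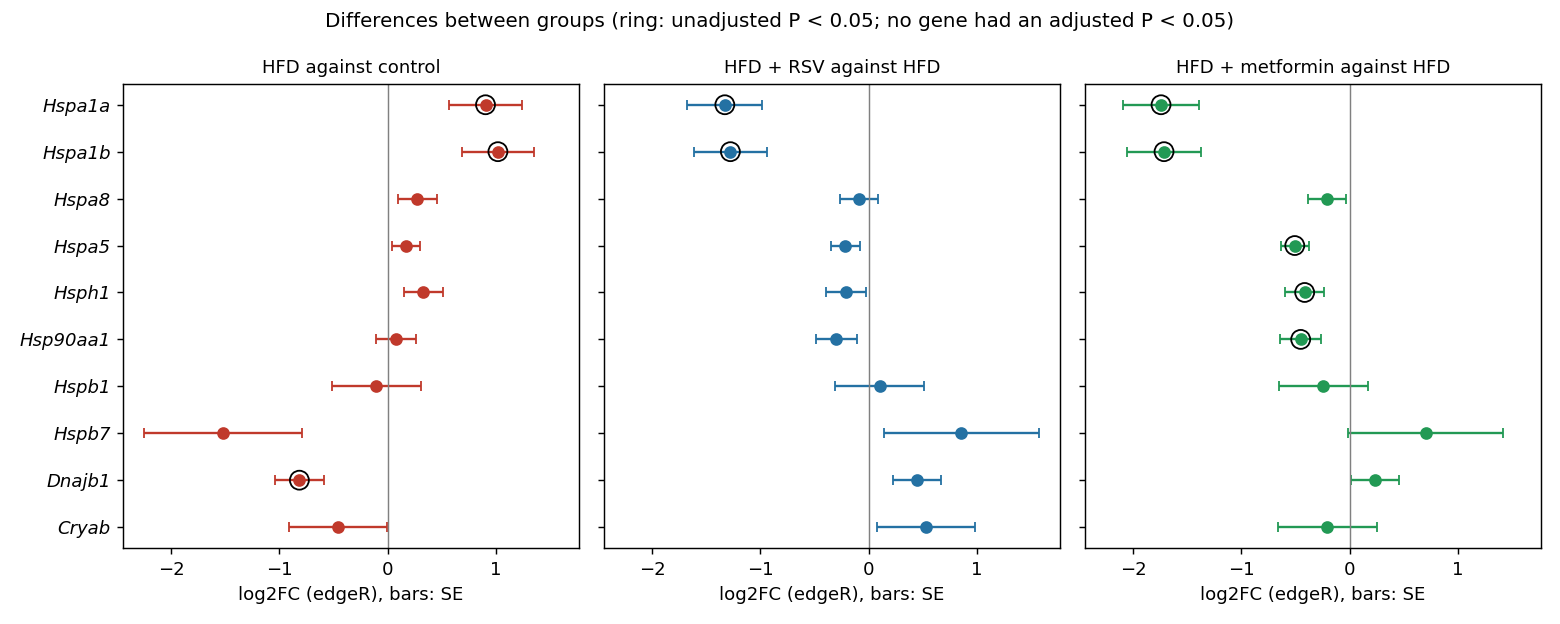
log2FC of the 10 genes from the edgeR fit to 16 mice in 3 comparisons, with bars for the SE and a ring where the unadjusted P was below 0.05. Hspa1a and Hspa1b lie near 1 in HFD against control and below -1 in both drug comparisons, and Hspb7 has the widest bars (SE 0.73, 0.72 and 0.71).

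Asked across the 4 groups at once, the F test of edgeR called 0.117% of all genes and 0 of 10 members. Hspa1b (adjusted P = 0.106) and Hspa1a (adjusted P = 0.107) were the nearest, and 4 members, these with Hspa5 and Dnajb1, had an unadjusted P < 0.05, as did 15.4% of all genes. DESeq2's test of the same question called 3 of 10 members, Hspa1a, Hspa1b and Hspa5, and 760 genes in all. Its comparisons of 2 groups tested 23205 genes, including genes with few counts. Between the drugs, HFD + RSV against HFD + metformin, 0% of genes and 0 of 10 members were called by edgeR, 1 member had an unadjusted P < 0.05 (Hspa5, log2FC 0.29, SE 0.13) as did 4.68% of genes, and DESeq2 called 0 members. All 10 log2FC values were positive there, from 0.12 for Hspa8 to 0.74 for Cryab. In HFD + RSV against control, 0.00651% of genes and 0 members were called, with 0 members and 15.8% of genes at an unadjusted P < 0.05. In HFD + metformin against control, 0% of genes and 0 members were called, and 3 members and 9.5% of genes had an unadjusted P < 0.05. These were Hspa1a (log2FC -0.84, SE 0.35), Hspa5 (-0.34, SE 0.13) and Dnajb1 (-0.58, SE 0.22), all lower in the metformin group, and DESeq2 called 0 members in either comparison with the control group.

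At the level of transcripts, 35 of the 47 transcripts of the 10 genes passed the filter on low counts. None of the 35 was called by edgeR in the 3 main comparisons, where 0.0157%, 0% and 0.00449% of the 44573 transcripts tested were, and 11, 3 and 8 of the 35 had an unadjusted P < 0.05, beside 13.1%, 5.02% and 6.07% of all transcripts. Hspa1a, Hspa1b and Hspb7 have 1 transcript each. Hsph1 was divided mainly between ENSMUST00000202089, which held 15.27% to 68.59% of the count in single mice, and ENSMUST00000074846, which held 16.78% to 59.47%. A transcript of Hsph1 with a retained intron, ENSMUST00000201431, held 11.05%, 30.15%, 32.21% and 19.33% in the control mice and 4.924% to 10.9% in the HFD mice, lower in every HFD mouse than in every control mouse. It held 15.3%, 28.33%, 5.888% and 9.967% in the RSV mice and 6.717% to 11.32% in the metformin mice. How many of all transcripts separate in this way was not counted. The log2FC of ENSMUST00000201431 in HFD against control was -1.18 (SE 0.43, adjusted P = 0.262). Dnajb1, Hspb1 and, in most mice, Hsp90aa1 were counted almost wholly on 1 transcript.

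Few other genes of protein folding were called by edgeR. In HFD against control, 3 of 85 tested genes of the other chaperone lists passed, all higher in the HFD group. At an unadjusted P < 0.05, 20 were higher and 5 lower. Over all genes 24.2% had such a P, with 1800 higher and 1915 lower. The lists were chosen with earlier results of these data known, and their genes are not independent of one another. The split between higher and lower is therefore a description only. DESeq2 called 14 as higher and 2 as lower, beside 6.69% of its 23205 genes, a base that includes genes with few counts. Creld2, an ER protein induced by ER stress, had a log2FC of 0.67 (SE 0.14, adjusted P = 0.0312). Hspa13, a microsomal HSP70, had 0.32 (SE 0.08, adjusted P = 0.0491), and Hspa12b, an endothelial HSP70-like gene, had 0.52 (SE 0.12, adjusted P = 0.0439). That is 2 of 9 other HSP70 and HSP110 genes (Hspa12b and Hspa13) and 2 of 22 genes of ER chaperones and the unfolded protein response (Creld2 and Hspa13, which is on both lists), beside 2.43% of all genes. The list medians in HFD against control were -0.03 and 0.08. In HFD + RSV against HFD, Creld2 had a log2FC of -0.48 and Hspa12b of -0.45, and neither was called.

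Of 4 heat shock factor genes, 15 genes of HSP90 and its cochaperones, 14 J-domain proteins, 11 genes of nucleotide exchange and quality control, 5 tested small heat shock proteins and 10 chaperonins, 0 were called by edgeR in each of the 3 comparisons. At an unadjusted P < 0.05, 16 of these 59 genes were higher and 4 lower in HFD against control, 0 were higher and 1 lower in HFD + RSV against HFD, and 2 were higher and 8 lower in HFD + metformin against HFD. Over all genes the unadjusted shares were 24.2% (1800 genes higher and 1915 lower), 4.72% (434 and 291) and 8.02% (803 and 429). DESeq2 called 12, 0 and 0 of the 59, beside 6.69%, 0.0345% and 0.138% of its 23205 genes, a base that includes genes with few counts. Hsf1, the factor of the heat shock response, had a log2FC of 0.17 in HFD against control (SE 0.09) and -0.16 in HFD + metformin against HFD (SE 0.09). Unc45b, the chaperone of muscle myosin, had 0.82 in HFD against control (SE 0.22, adjusted P = 0.0583) and -0.49 in HFD + metformin against HFD. Fkbp5, a cochaperone that glucocorticoids induce, had -1.54 in HFD against control (SE 0.43, adjusted P = 0.0659). At an unadjusted P < 0.05, 7 of the 15 HSP90 and cochaperone genes were higher and 2 were lower in the HFD group, and their median log2FC was 0.22. Hspb3, a small heat shock protein of muscle, had 0.85 (SE 0.28, adjusted P = 0.0986). Bag4 had -0.82 (SE 0.30), Dnajb5 0.53 (SE 0.18) and Cct5 0.26 (SE 0.09) in the same comparison. In HFD + metformin against HFD, Dnajb11, an ER partner of Hspa5, had -0.31 (SE 0.11, adjusted P = 0.607) and Sdf2l1, another, had -0.62 (SE 0.21, adjusted P = 0.605).

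For each member, the genes with the most similar pattern over the 16 mice were found by Pearson's r of log2 CPM after the group means were subtracted. Hspa1a and Hspa1b were each nearest to the other (r = 0.967), and next came Acot7 for Hspa1a (0.825) and Mdk for Hspa1b (0.851). Hspb1 was nearest to its copy Hsp25-ps1 (0.998), with which it shares sequence, and to Gm9817 (0.95) and Cryab (0.937). Cryab was nearest to Ankrd1 (0.96), a gene of stretched muscle, and to Flnc (0.948), a Z-disc protein. Hspb7 was nearest to Lmcd1 (0.97), Myl12a (0.961) and Xirp1 (0.923). Hspa8 was nearest to Pdlim3 (0.904), Hsph1 to Slc8a1 (0.934), Hsp90aa1 to Sntg2 (0.895), Hspa5 to AC157572.2 (0.917) and Dnajb1 to Spaca6 (0.856). These values are the highest among all tested genes and describe these mice only.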

How the data were processed

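RNA of skeletal muscle from 16 mice was sequenced in 4 groups of 4, with 1 library per mouse, so replicates are mice and P values measure the spread between them. According to the labels' processing notes, reads were trimmed with fastp and aligned with HISAT2 to GRCm38, and according to the paper's methods fragments were counted with StringTie. The authors deposited expected counts per transcript without normalization, which were whole numbers. The authors also deposited FPKM values, in which each count is divided by the transcript's length and by the library's total over both tables (agreement to 0.0098%). Before use, 4 transcripts broken over 2 lines of the mRNA file were joined, and the counts were summed per gene name. All 47 member transcripts had the coordinates of GENCODE M21.

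Genes with few counts were removed (filterByExpr with the groups, least count 10, least total 15), and the rest were scaled by TMM and fitted with edgeR 4.0.16 in R 4.3.3 (glmQLFit with robust estimation, glmQLFTest, 1 fit to 16 mice). The test was checked on simulated data with 200 changed genes of a log2 change of 1, of which it called 57.5%, 59.5% and 56.5% in the 3 main comparisons. The changes were planted in the HFD group, so each of these comparisons held 200 changed genes. The shares hold for that setting only. They do not give the power of the real comparisons of RSV and metformin with HFD, where 0 and 2 genes were called. A gene was called at a Benjamini-Hochberg adjusted P < 0.05 over 15364 genes, and all 10 members passed the filter. SE is the absolute log2FC divided by the square root of F. The log2 CPM of the pattern search had a prior count of 2. The paper's comparisons do not include the metformin group.

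The members and the gene lists were chosen with earlier results of these data known. All 10 members were named. Of the other lists, a gene could be named if it was called in a main comparison or was among the 2 of its list with the largest absolute log2FC in the comparison described. Transcripts could be named with at least 10% of their gene's count, and up to 3 genes were named as most like a member. The alternatives were no filter, RLE scaling, DESeq2 1.42.0, mice of the 2 groups alone, the largest transcript per gene, the library size of both tables, overlapping lncRNA rows added, the study's thresholds on the unadjusted P, and leaving out each mouse. The lncRNA rows were to be limited to the member's strand, but no strand is given for them, so all overlapping rows were added. Protein sequences were not used here.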

Additional observations from a re-analysis of the deposited data

Results flagged for a closer look

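In 40 groups of 4 mice (10 genes in 4 groups), 7 held a mouse far from the other 3. For independent, normally distributed values this rule would mark about 1 in 20 groups. The 40 groups reuse the same mice, and some members vary together, such as Hspb1 and Cryab (r = 0.937). The number marked can therefore not be set against that rate. RSV mouse 3 was high in Hspa8 (401.6 CPM, the others 293.4 to 302.1) and in Hspa5 (147.8 CPM, the others 122.3 to 126.6). Control mouse 1 was high in Hsph1 (115.4 CPM, the others 80.69 to 81.1), and metformin mouse 3 was low in it (65.98 CPM, the others 89.43 to 91.09). Among the small heat shock proteins, control mouse 4 was high in Hspb1 (269.3 CPM, the others 108.9 to 128). Metformin mouse 2 was high in Hspb7 (555 CPM, the others 88.78 to 143.8) and in Cryab (196.7 CPM, the others 72.76 to 88.1). No cause of these values was tested.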

How the results depend on the processing

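The number of members called was 0 in all comparisons and moved under some alternatives, mostly in HFD against control. In HFD against control it was 2 with DESeq2 and with the mice of the 2 groups alone (Hspa1b and Dnajb1 in both) and 1 with the study's thresholds on the unadjusted P (Hspa1b). It was also 1 (Dnajb1) without metformin mice 2 and 3, an alternative chosen after seeing the data. In HFD + RSV against HFD it was 2 with the study's thresholds on the unadjusted P, and in HFD + metformin against HFD it was 2 with DESeq2 and 2 with the study's thresholds on the unadjusted P (Hspa1a and Hspa1b each time). DESeq2's test across the 4 groups called 3 members among 760 genes. When each mouse was left out in turn, the number ranged from 0 to 1 in HFD against control, with Dnajb1 called without metformin mouse 3 or 4, and from 0 to 1 in the F test, with Hspa1a called without metformin mouse 3. In the other 5 comparisons it was 0 each time. The other 172 of 183 counts equalled the reported value.

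Of 747 log2FC values under alternatives, 740 kept the direction of the reported value. The exceptions all left out mice. In HFD against control they were Hsp90aa1 (-0.04 to 0.21 when each mouse was left out, lowest without control mouse 2), Hspb1 (-0.24 to 0.31) and Cryab (-0.64 to 0.02), both highest without control mouse 4. In HFD + RSV against HFD the exception was Hspb1 (-0.47 to 0.32, lowest without RSV mouse 3). In HFD + metformin against HFD they were Hspb7 (-0.28 to 0.97, lowest without metformin mouse 2, and -0.48 without metformin mice 2 and 3) and Dnajb1 (-0.02 without metformin mice 2 and 3).

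Counts over all genes moved more. In HFD against control, 374 genes were called, against 158 without a filter, 32 with the largest transcript per gene, 998 with the mice of the 2 groups alone, 1552 with DESeq2, 759 with the study's thresholds on the unadjusted P, 1480 without metformin mice 2 and 3, and 16 (without control mouse 2) to 1588 (without metformin mouse 3) when each mouse was left out. The F test called 18 genes, against 8 with the largest transcript per gene, 760 with DESeq2, 338 without metformin mice 2 and 3, and 1 to 474 when each mouse was left out. DESeq2 called 8, 32, 12, 358 and 146 genes in the other 5 comparisons, where edgeR called 0, 2, 0, 1 and 0 (in order, RSV and metformin against HFD, RSV against metformin, RSV and metformin against control). The study's thresholds on the unadjusted P gave 166, 271, 149, 418 and 250 in the same order. Without metformin mouse 3, edgeR called 261 and 180 genes in the last 2. The leading label number was also used as a block in the 12 mice outside the HFD group, an alternative chosen after seeing the data. With 4 residual degrees of freedom, edgeR called 0 genes and 0 members in the 3 comparisons without the HFD group. Only metformin mouse 2 and RSV mouse 4, which carry 6, link the metformin group to another group. The comparisons with the metformin group rest on that link, so their counts of 0 decide nothing. No paired analysis was possible because, for the comparisons with the HFD group, no other group shares the number of the HFD mice. The cause of these differences was not tested. With 4 mice a group, a P above the threshold does not show that levels were equal, and counts of the 5 genes with copies may be divided between copies.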
